A study of Gallus gallus with 15 samples.

Results

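Of the 24356 genes counted in the hypothalamus of broiler chicks on the day of hatch (DOH), 18 met a rule on group means. They stood above the dark-incubated Control by a similar amount in both green lighting regimes, with a White mean near Control. They were selected on differences between group means and on a floor on abundance. Counts were divided by the library total, scaled to 1000000 (CPM) and taken as log2(CPM + 1), and a gene needed a mean count of at least 50 over the 15 libraries. Green minus Control and G3D minus Control then both had to reach 0.5, G3D minus Green had to lie within 0.15 of zero, and White minus Control within 0.2. The neuropeptide genes PACAP, VIP and SST were set aside by identifier, and none of these 3 met the limits.

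The libraries are bulk MARS-Seq, a 3′-end RNA method in which unique molecular identifiers (UMIs) mark duplicate reads, made from the hypothalamus of Ross 308 broilers, a fast-growing meat-type chicken. Control embryos were incubated in the dark (4 libraries), White embryos under white light (4), Green embryos under green light through incubation (3), and G3D embryos under green light limited to the final 3 days before hatch (4). All were sampled at hatch, with RNA from 1 hemisphere of the hypothalamus. The titles name males for Control, White and Green and give no sex for G3D. The paper's figure legend for these profiles describes the chicks as male. The eggs were incubated in several trials and no label says which trial a library came from, so a trial cannot be told apart from the lighting groups.

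Total counts were between 6066732 and 9501555 in Control, between 3944530 and 8077895 in White, between 5898618 and 8205918 in Green and between 4196251 and 7979031 in G3D. Counting error was only part of the spread, since pairs of libraries from 1 group gave 11.7 to 27.6 for chi-square over its degrees of freedom. Of 9 neuron markers listed, 3 could be matched to an identifier (SNAP25, STMN2 and GAD2), and the synaptic vesicle fusion protein SNAP25 was between 479 and 1270 CPM across the 15 libraries. The markers of astrocytes, oligodendrocytes, microglia, endothelium and blood could not be matched and were not analysed here.

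Light reaches the brain of birds through the skull, and photoreceptors lie deep in the hypothalamus as well as in the eyes and the pineal gland. The hypothalamus in turn sets the release of pituitary hormones, growth hormone among them, through releasing and inhibiting peptides. A gene that is high whether green light is given throughout or only at the end is one whose level at hatch does not separate a long from a short exposure. In bulk tissue such a difference cannot tell more RNA per cell from more cells of a type that uses the gene.

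Symbols came from the identifier and symbol columns of the study's supplementary table, which pairs 568 of its 728 identifiers with a symbol. On that basis 3 of the 18 genes have a name: BRINP1, COMMD4 and NFKBIB. A further 2 identifiers are listed there without a symbol, and 13 are not listed. The paper cites that table for genes it found differentially expressed against Control in these same samples. Genes with a symbol are thus a selected subset, here and in all lists below. The 15 unnamed genes are given by their Ensembl identifier alone, and whether they overlap or copy other genes was not analysed here.

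The limits narrowed the field in steps. Of 6564 genes at or above the count floor, 200 met the limit on Green minus Control and 284 the limit on G3D minus Control, and 98 met both. Of those 98, 50 also had G3D within 0.15 of Green, and 18 of the 50 had White within 0.2 of Control. Over the 18 genes, Green minus Control was between 0.53 and 1.18 on the log2(CPM + 1) scale with a median of 0.60, and G3D minus Control was between 0.51 and 1.30 with a median of 0.59. All of these differences entered the choice of the genes, so they are a description and were not tested.

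**Figure D1:**
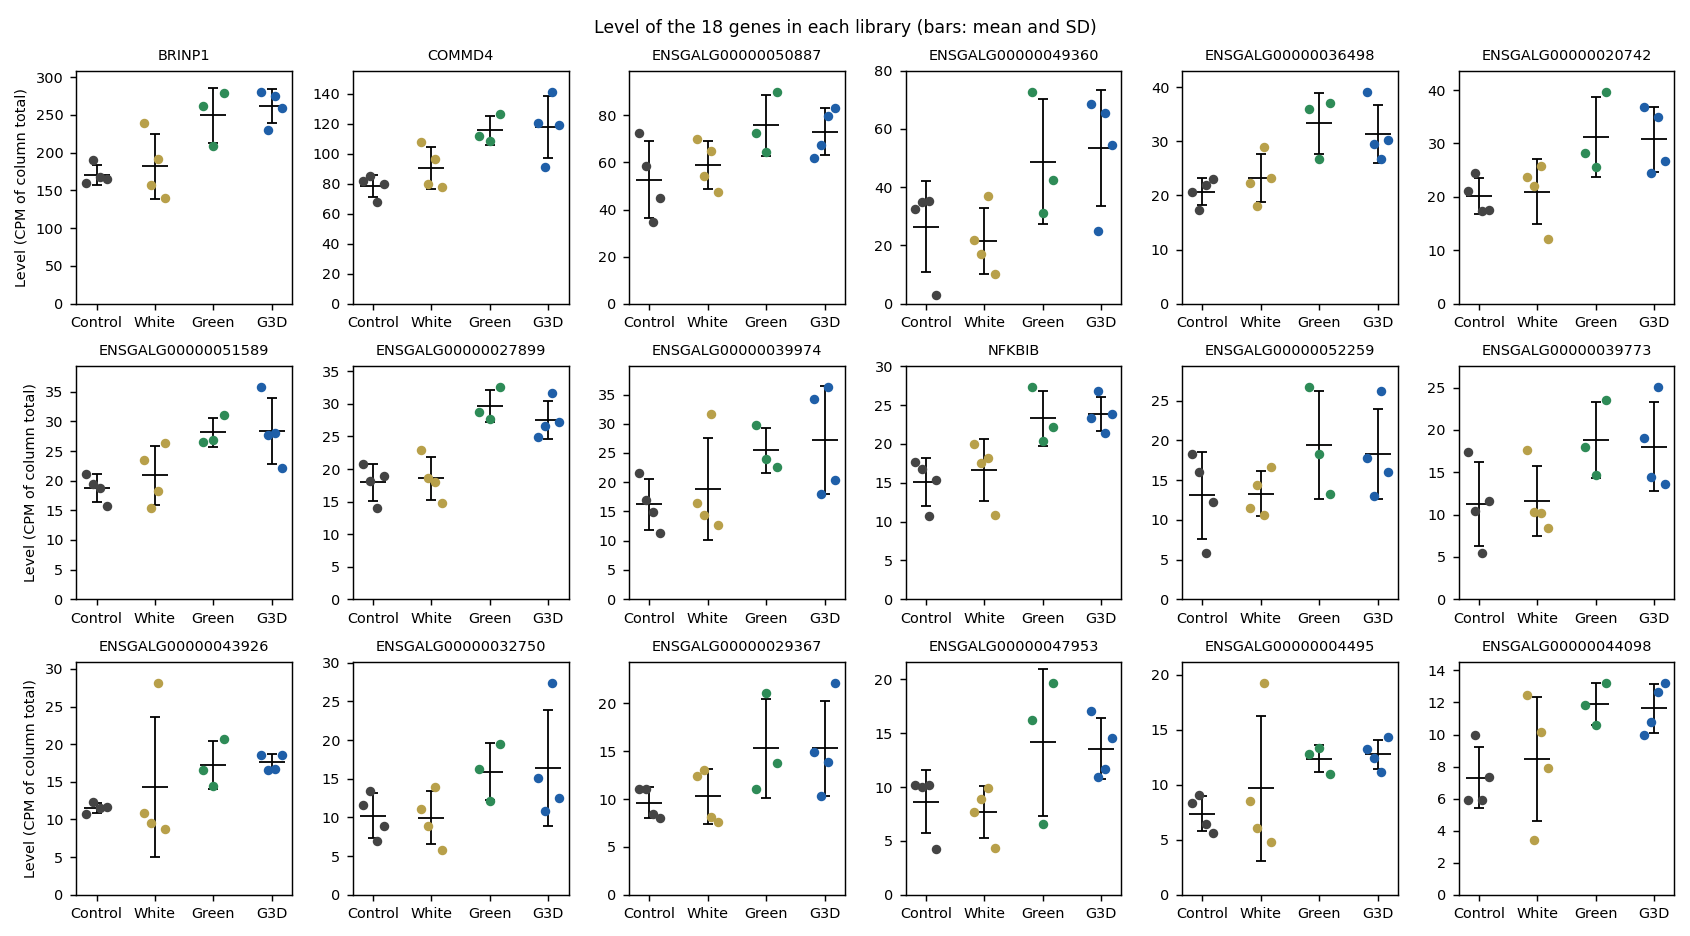
CPM of each of the 18 genes in each of the 15 libraries, 1 panel a gene, with points for the libraries of Control, White, Green and G3D and a bar at each group mean. The Green and G3D points sit at similar heights in each panel, and for 16 of the 18 genes at least 1 White library, most often replicate 6 or 1, reaches the lowest green library.

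BRINP1 (ENSGALG00000006997) was the most abundant of the 18 by mean count. It encodes BMP/retinoic acid-inducible neural-specific protein, which in rodents is made mainly by neurons and slows the cell cycle when expressed in dividing cells. Control replicates 4, 5, 6 and 8 held 159, 190.1, 167 and 165 CPM, and White replicates 1, 3, 6 and 7 held 239, 157, 191 and 140.4 CPM. Green replicates 2, 7 and 9 held 261, 208 and 278 CPM, and G3D replicates 1, 5, 6 and 7 held 280.4, 230.4, 275 and 259 CPM. All 7 green libraries were above all 4 Control libraries, but White replicate 1 was above Green replicate 7 and G3D replicate 5. In edgeR's quasi-likelihood fit over all 15 libraries the log2 fold change from Control was 0.54 ± 0.16 (standard error) in Green and 0.59 ± 0.15 in G3D, and near zero in White, with a standard error of 0.15.

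COMMD4 (ENSGALG00000001572) encodes a COMM domain protein. In human cells the COMMD proteins assemble into the Commander complex, which returns membrane proteins from endosomes to the cell surface, and several of them bind NF-kappaB subunits. In the same order of replicates, Control had 81.6, 84.9, 67.9 and 79.7 CPM and White had 108, 79.8, 96.6 and 78.1 CPM. Green had 112, 109 and 127 CPM and G3D had 121, 90.9, 141 and 119 CPM. Again every green library was above every Control library, and White replicates 1 and 6 were above G3D replicate 5, the lowest of the green libraries. The edgeR log2 fold change from Control was 0.55 ± 0.15 in Green, 0.56 ± 0.14 in G3D and 0.11 ± 0.14 in White.

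NFKBIB (ENSGALG00000029691) encodes an inhibitor that holds NF-kappaB dimers in the cytoplasm until a signal leads to its degradation. Control libraries were at 17.6, 16.7, 10.7 and 15.4 CPM and White libraries at 19.97, 17.5, 18.3 and 10.9 CPM. Green libraries were at 27.3, 20.4 and 22.2 CPM and G3D libraries at 23.4, 26.8, 21.4 and 23.8 CPM. The lowest green library, Green replicate 7, lay just above the highest White library, replicate 1, so the green libraries overlapped neither Control nor White. The log2 fold change from Control was 0.62 ± 0.22 in Green, 0.64 ± 0.21 in G3D and 0.03 ± 0.21 in White by edgeR.

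Among the genes without a symbol, ENSGALG00000027899 had the same separation. Its Control libraries held 20.8, 18.1, 14.01 and 18.97 CPM and its White libraries 22.9, 18.6, 18 and 14.9 CPM. Green held 28.8, 27.8 and 32.5 CPM and G3D 24.9, 26.6, 31.7 and 27.2 CPM. It also had the smallest spread within groups of the 18, with a standard deviation of 0.20 on the log2 scale against a median of 0.39 over the 18 genes. Its edgeR log2 fold change from Control was 0.72 ± 0.18 in Green and 0.59 ± 0.17 in G3D.

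ENSGALG00000049360 had the largest differences, and these rested in good part on a single library. Control replicates 4, 5 and 6 were at 32.5, 35.05 and 35.3 CPM and replicate 8 was at 3.14 CPM. White was at 21.95, 17.2, 37.01 and 10.3 CPM, Green at 72.8, 31.2 and 42.4 CPM and G3D at 68.6, 25.1, 65.5 and 54.3 CPM. Green replicate 7 and G3D replicate 5 lay below 3 of the 4 Control libraries, and the groups overlapped. Without Control replicate 8, Green minus Control was 0.41, under the limit of 0.5, and G3D minus Control was 0.53. On the edgeR scale, which is fitted to the counts themselves, the log2 fold change of White from Control was -0.44 ± 0.61, while the mean of log2 values put White at the Control level (-0.004).

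ENSGALG00000036498 and ENSGALG00000004495 also had all green libraries above Control, and both overlapped White. ENSGALG00000036498 had 20.6, 17.3, 21.9 and 23.1 CPM in Control, 22.3, 18.1, 28.9 and 23.3 in White, 36.1, 26.8 and 37.1 in Green and 39.2, 29.5, 26.7 and 30.3 in G3D. White replicate 6 was above 2 of its green libraries. ENSGALG00000004495 had 8.35, 9.05, 6.43 and 5.65 CPM in Control, 8.504, 6.09, 19.3 and 4.83 in White, 12.8, 13.3 and 11.02 in Green and 13.2, 12.4, 11.2 and 14.3 in G3D. Here the 7 green libraries lay in a narrow band above all Control libraries and 3 White libraries, and White replicate 6 exceeded them all.

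The 3 other genes described singly overlapped Control. ENSGALG00000050887 had 72.7, 58.6, 34.8 and 44.8 CPM in Control, 69.8, 54.4, 64.9 and 47.3 in White, 72.6, 64.5 and 90.02 in Green and 61.95, 67.4, 79.6 and 83.3 in G3D. Control replicate 4 was as high as Green replicate 2 and above 3 other green libraries. ENSGALG00000039773 had 17.4, 10.4, 5.44 and 11.6 CPM in Control, 17.6, 10.2, 10.1 and 8.42 in White, 18.04, 14.7 and 23.6 in Green and 19.1, 14.4, 25.02 and 13.6 in G3D. ENSGALG00000039974 had 21.7, 17.05, 14.8 and 11.3 CPM in Control, 16.4, 14.4, 31.7 and 12.8 in White, 29.9, 23.9 and 22.5 in Green and 34.2, 18.05, 36.2 and 20.5 in G3D. For both of these, Control replicate 4 was the highest Control library and lay above at least 1 G3D library.

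The remaining 8 genes had mean counts between 63.8 and 168. Their Green minus Control was between 0.53 and 0.66 and their G3D minus Control between 0.51 and 0.64 on the log2(CPM + 1) scale. Every Green library was above every Control library for 4 of them, every G3D library was for 4, and both held for 3. None of the 8 had all green libraries above White as well as Control.

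Across all 18, every Green library was above every Control library for 11 genes, against 6.25% of the 6564 genes at or above the floor. For 10 genes the lowest G3D library exceeded the highest in Control (background 6.05%), and both held for 9 (background 2.1%). All 7 green libraries were above all 8 Control and White libraries for 2 genes, NFKBIB and ENSGALG00000027899 (background 0.411%). Since the rule chose genes on these differences, the counts are a description of how cleanly the chosen genes separate. Leaving out White replicate 6 raised the last count from 2 to 6. When any 1 of the 15 libraries was dropped, the count above Control was between 9 and 12, the highest without Control replicate 4.

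**Figure D2:**
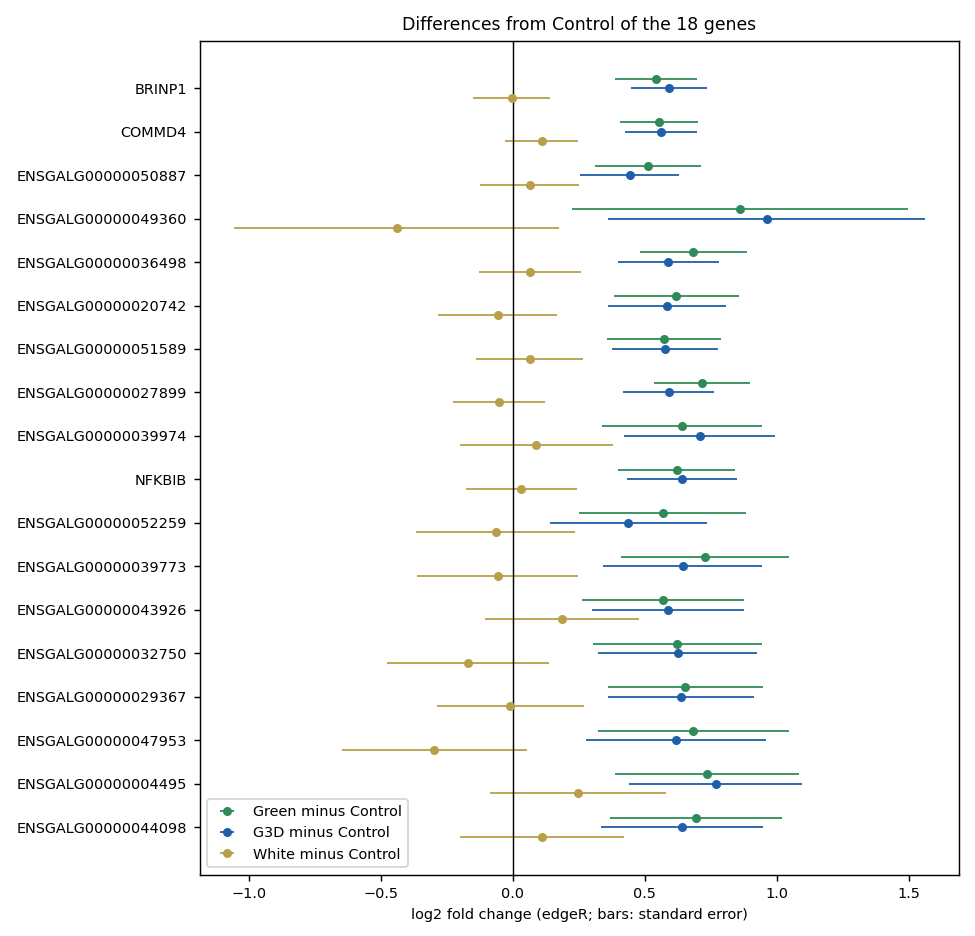
Log2 fold change from Control of each of the 18 genes (points, edgeR) in Green, G3D and White, with bars of 1 standard error and a line at 0, genes in order of mean count. The Green and G3D points lie side by side to the right of the line for every gene, the White points lie around it between -0.44 and 0.25, and the bars are widest for ENSGALG00000049360.

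The closeness of the 2 green regimes was a limit of the rule and was narrower than the error of the measurement. G3D was above Green for 8 of the 18 genes and below it for 10, with differences between -0.10 and 0.12. The standard error of G3D minus Green in the edgeR fit was between 0.15 and 0.64 with a median of 0.30, and for 17 of the 18 genes it was above the limit of 0.15. A gene whose true levels under the 2 regimes differed by as much as that error could therefore have met the limit. The background for each fit, here and below, is the share of genes passing as higher in the first group named, without those lower. None of the 18 genes passed an adjusted p of 0.05 for G3D minus Green in edgeR (background 0% of 10475 genes), and 0 had an unadjusted p under 0.05, where the background was 1.71% in the direction of G3D. DESeq2 called 0 of them as well (background 0.00567%). That does not show the 2 regimes to be alike.

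By the same fit, 0 of 18 genes passed an adjusted p of 0.05 in Green minus Control (background 0%). In G3D minus Control it was 0 of 18, where 3 of all genes tested were called higher (background 0.0286%) and 7 lower. At an unadjusted p under 0.05, 13 of 18 were higher in Green minus Control (background 3.58%) and 13 in G3D minus Control (background 6.81%). Over all genes tested, 375 were higher and 375 lower at that p in Green minus Control. In G3D minus Control 713 were higher and 924 lower. DESeq2 called 1 of the 18, ENSGALG00000027899, in Green minus Control (background 0.16%), and 3, BRINP1, COMMD4 and ENSGALG00000027899, in G3D minus Control (background 1.02%). Over all genes it called 14 higher and 9 lower in Green minus Control, and 82 higher and 141 lower in G3D minus Control. The voom method of limma called 0 in both. In White minus Control 0 of 18 passed in edgeR (background 0%), with 0 at an unadjusted p under 0.05. At that p 254 of all genes tested were higher (background 2.42%) and 315 lower. DESeq2 called 0 of the 18 (background 0.00567%). These contrasts are the ones that chose the genes, so nothing is read from the counts.

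The differences from White were of the same order. The rule held White within 0.2 of Control, so these differences too were largely fixed by the choice of the genes. Green minus White was between 0.35 and 1.19 on the log2(CPM + 1) scale over the 18 genes with a median of 0.50, and G3D minus White was between 0.31 and 1.30 with a median of 0.53. In edgeR, 0 of 18 passed an adjusted p of 0.05 in Green minus White (background 0.0477% higher). At an unadjusted p under 0.05, 12 were higher (background 6.97% higher). DESeq2 called 1 there (background 0.88%). At an unadjusted p under 0.05 it was 13 in G3D minus White (background 10.8%), of which 2 passed after adjustment (background 1.68%): BRINP1, with a log2 fold change of 0.60 ± 0.15 and adjusted p = 0.0279, and ENSGALG00000027899, with 0.64 ± 0.17 and adjusted p = 0.0422. Both were above the White mean in 4 of 4 G3D libraries. Neither call held without White replicate 3, White replicate 7, G3D replicate 1 or G3D replicate 6. BRINP1 was then at an adjusted p between 0.0713 and 0.103. With the replicate number as a block it was 0.0900 for BRINP1 and 0.222 for ENSGALG00000027899, which was lost in 12 of 20 alternatives in all, including without Control replicate 5, White replicate 6, any 1 Green library or G3D replicate 7, and with no filter on low counts. DESeq2 called 4 of the 18 in G3D minus White (background 4.27%), these 2 with COMMD4 and NFKBIB. Over all genes in G3D minus White, edgeR called 176 higher and 261 lower, and DESeq2 403 higher and 598 lower. Because G3D minus Control and White minus Control were fixed by the rule, this contrast follows from them and is no separate evidence.

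By the rule itself, only the limit on White separated these 18 from the other genes equally high in both green regimes. Of the 50 genes that met the limits on Green and G3D, the 32 left out by the limit on White lay almost wholly on 1 side of it: White was above Control by at least 0.2 for 31 and below it for 1. Their White minus Control was between -0.27 and 1.60 with a median of 0.44. Among the 18 genes the White mean was above Control for 15 and below for 3, with a median of 0.11. Of the 50 genes together, White was above Control by the limit or more in 31, within it in 18 and below it in 1. In the edgeR fit the median log2 fold change of White from Control was 0.014 over the 18 genes and 0.006 over all 10475 genes tested. How many of all genes had White above Control was not counted, so no lean of White is read from these counts. The largest differences of the 50 were those of ENSGALG00000016600, at 3.70 in Green, 3.63 in G3D and 1.60 in White, while its Control and White libraries each ran from near zero into the range of the green libraries. No test of this was made, since the 3 differences share the same Control libraries.

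Of the 32, 8 have an entry in the symbol column, and those named here were chosen after their values were seen. SIX3, a homeobox transcription factor of the forebrain and eye field, was above Control by 0.73 in Green, 0.78 in G3D and 0.39 in White. SEMA3G, a secreted semaphorin, was above by 1.06, 1.04 and 0.42, in the same order. MANF, an endoplasmic reticulum stress-induced survival factor, was above by 0.60, 0.59 and 0.31, and CS, the citrate synthase of the citric acid cycle, by 0.52, 0.60 and 0.28. CS does not stand for its cycle, of which 7 of 18 listed genes were matched. Besides CS only DLST was above Control, by 0.40 in Green and 0.70 in G3D. The others were below Control in both green regimes. In G3D the difference was -1.14 for SDHA, -1.04 for IDH3A, -0.58 for SUCLA2, -0.57 for MDH1 and -0.50 for FH. PACAP, a neuropeptide of the same family as VIP, was above Control by 0.55, 0.58 and 0.46. Over all 32, the White mean lay between the Control mean and both green means for 25 genes, between the 2 green means for 3, above both for 3 and below Control for 1. Of the 8 with a symbol it lay below both green means for 7, and for BTBD19, a BTB domain protein, it lay between them, with differences of 1.42 in Green, 1.29 in G3D and 1.33 in White.

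**Figure D3:**
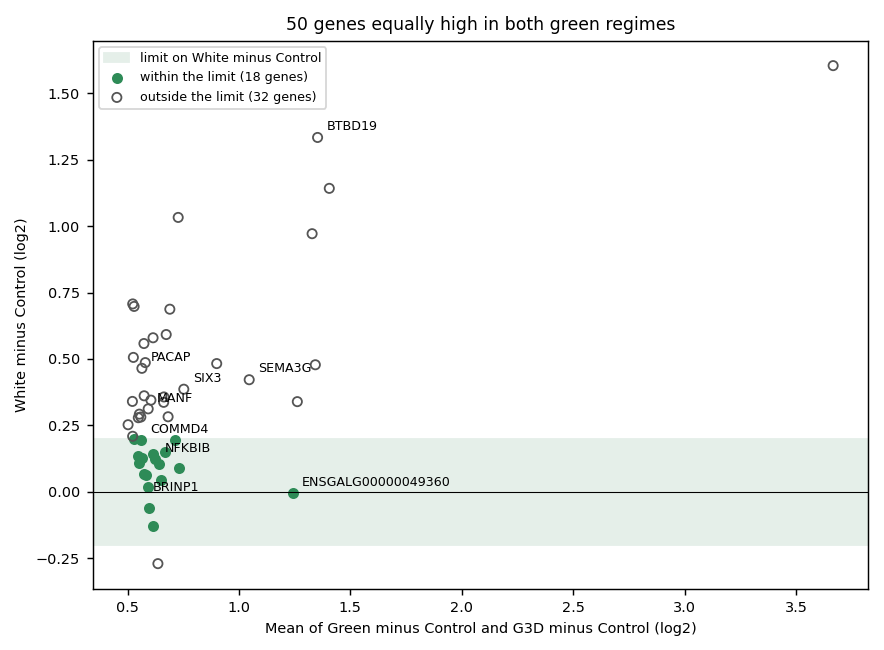
White minus Control (y axis) against the mean of Green minus Control and G3D minus Control (x axis), both as differences of mean log2(CPM + 1), for the 50 genes equally high in both green regimes, with the 18 genes inside the limits on White of -0.2 and 0.2 marked in a second colour. The 32 other genes lie above the band except 1, which lies below it, and the point at the far right is ENSGALG00000016600.

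The limits cut through a continuous spread of values. The gene just short of the limit on Green minus Control was ENSGALG00000041752 at 0.47, and the nearest inside was ENSGALG00000043926 at 0.53. For G3D minus Control the neighbours were ENSGALG00000035869 at 0.497 outside and ENSGALG00000050887 at 0.506 inside. ENSGALG00000002010 was left out with G3D 0.158 above Green, and ENSGALG00000049360, at 0.118, was the nearest inside. ENSGALG00000020479 was left out with White 0.209 above Control, against 0.198 for ENSGALG00000050887. Below the floor, ENSGALG00000029197 met every other limit with a mean count of 45.1, and the gene of lowest abundance inside was ENSGALG00000044098 with 63.8.

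Membership also depended on single libraries. Leaving out each of the 15 libraries in turn and applying the same limits gave between 9 and 25 genes, of which between 9 and 17 were among the 18. The fewest, 9, remained without White replicate 3, White replicate 7 or Green replicate 9, and the most, 17, without White replicate 1. None of the 18 met all limits in all 15 settings. BRINP1, ENSGALG00000027899 and ENSGALG00000044098 did in 13 of 15, NFKBIB in 12, COMMD4 in 7 and ENSGALG00000050887 in 5, with a median of 10.5 over the 18. The limit on White was broken at least once by 15 genes, those on Green minus Control and on G3D minus Green by 14 each, and that on G3D minus Control by 12. Green and G3D stayed above Control for all 18 genes in all 15 settings. The lowest differences, 0.27 and 0.20, were those of ENSGALG00000052259 without Control replicate 6. The genes were chosen for standing well above Control in both regimes in these same libraries. Their signs were thus nearly fixed by the choice, and no steadiness is read from them.

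**Figure D4:**
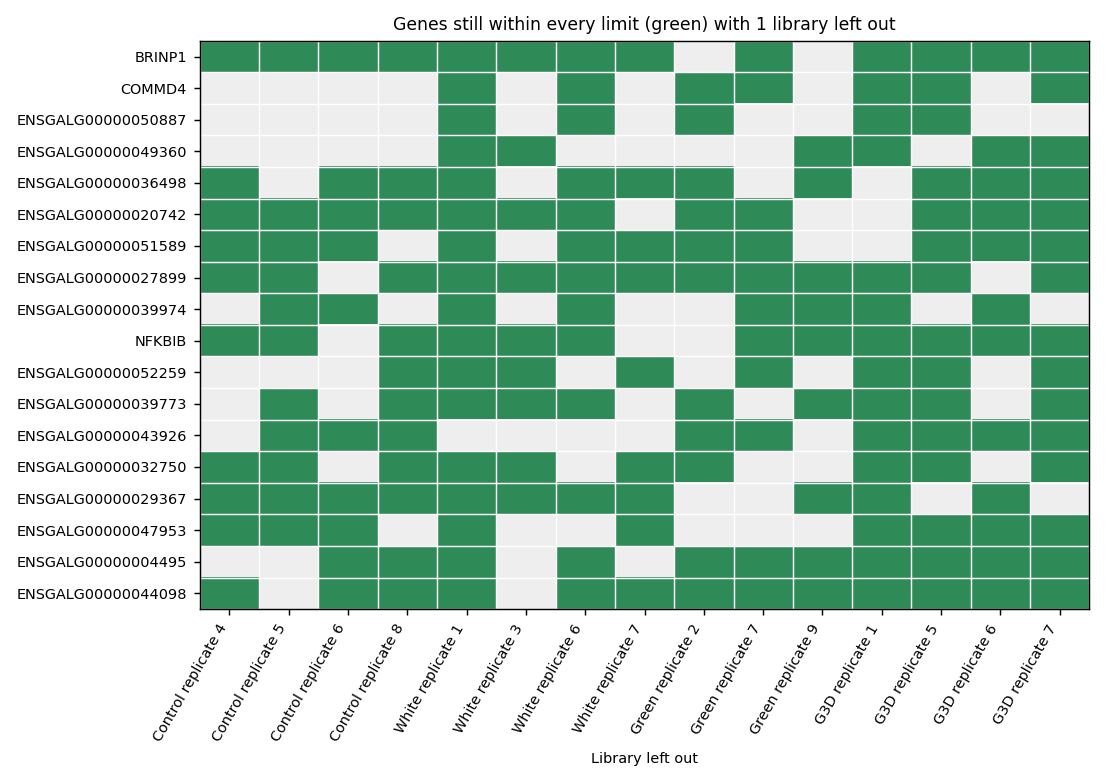
For each of the 18 genes (rows) and each of the 15 libraries left out (columns), whether the gene still met all limits of the rule (filled) or not (empty). No row is filled throughout, and the columns of White replicates 3 and 7 and Green replicate 9 have the fewest filled cells, 9 of 18.

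Libraries of the same group were not alike for these genes. The median of the 18 log2 differences from the Control mean ran from 0.46 to 0.80 over the 3 Green libraries and from 0.42 to 0.72 over the 4 of G3D. Green replicate 7 was the lowest Green library for 13 of the 18 genes, and G3D replicate 5 the lowest G3D library for 10. In G3D replicate 6 all 18 genes were above every Control library, in Green replicate 7 it was 12 and in G3D replicate 5 it was 11. The same count over all genes was not made for single libraries, so these numbers describe only the 18 chosen genes. The Control libraries ran from a median of -0.18 in replicate 6 to 0.20 in replicate 4.

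White replicates split the most. Replicate 1 had 15 and replicate 6 had 14 of the 18 genes above the Control mean, whereas replicate 3 had 8 and replicate 7 had 4. In replicate 6, 11 genes were above every Control library, and in replicate 1, 8 were. No share over all genes was worked out for single libraries here either, so the split is not read as particular to these genes. White replicates 6 and 1 had the lowest totals of their group, 3944530 and 5056447 counts, and replicate 7 the highest, 8077895. In Green and G3D too the library with the fewest counts had the highest median, 0.80 in Green replicate 9 (5898618 counts) and 0.72 in G3D replicate 6 (4196251). The deepest G3D library, replicate 5 (7979031), had the lowest, 0.42. In Green the deepest library, replicate 2 (8205918), was at 0.66, above replicate 7 (7349032) at 0.46. Control had the opposite order, since replicates 4 and 5, with the highest totals of 9464458 and 9501555, were the highest for these genes. The part of depth in these levels was not tested. The mean of White near Control thus averaged libraries on both sides of it.

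After the group means were subtracted, the 18 genes still tended to move together from library to library. Over their 153 pairs the median Pearson correlation across the 15 libraries was 0.32, between -0.51 and 0.89, and 88.9% of pairs were above 0. For all pairs of the 6564 genes the median was 0.02 and 52.1% were above 0. A correlation above 0.5 was found for 26.8% of the pairs of the 18 and for 7.75% of all pairs. These are descriptions over 15 libraries with 11 residual degrees of freedom, and the libraries share their depth and composition between genes. The standard deviation within groups had a median of 0.39 on the log2 scale for the 18 genes and 0.26 for all genes at or above the floor.

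The closest pair was ENSGALG00000027899 and ENSGALG00000039773 at 0.89. ENSGALG00000043926 and ENSGALG00000004495 followed at 0.84, both with their highest level of all in White replicate 6. BRINP1 and COMMD4 had a correlation of 0.77, and ENSGALG00000032750 had 0.84 with both COMMD4 and ENSGALG00000020742. ENSGALG00000036498 and ENSGALG00000029367 were the furthest apart, at -0.51. NFKBIB had a median correlation of 0.33 with the other 17 genes, BRINP1 0.47 and COMMD4 0.34, and ENSGALG00000051589 had the lowest, 0.06.

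**Figure D5:**
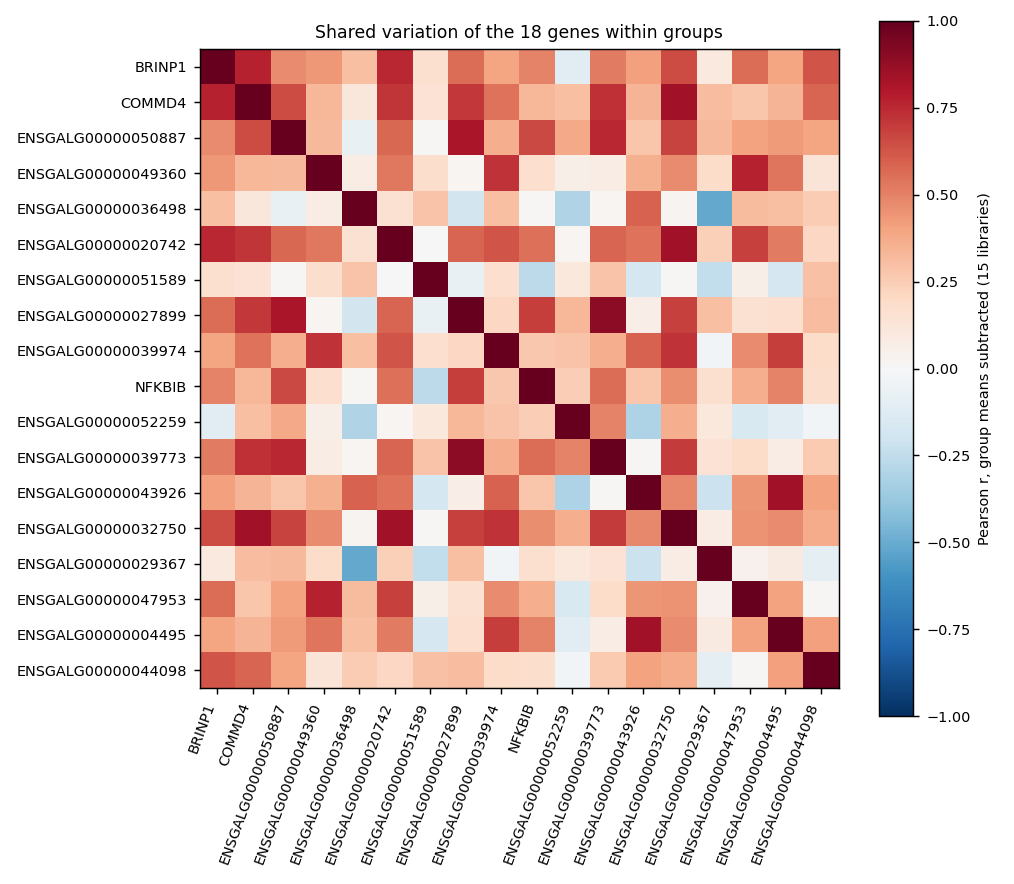
Pearson correlation of log2(CPM + 1) between each pair of the 18 genes over 15 libraries after subtracting group means, coloured from -1 (blue) to 1 (red), genes in order of mean count. Most cells are red, and the rows of ENSGALG00000051589, ENSGALG00000052259 and ENSGALG00000029367 are among the palest.

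The families and the pathway of the 3 named genes were looked up by symbol. Of 20 genes listed for the NF-kappaB pathway, 3 could be matched: NFKBIB, MAP3K14 and MAP3K7. These lists were limited to symbols in the study's table, which the study drew up on the same samples, so their counts are not independent evidence. MAP3K14, the kinase that starts the noncanonical NF-kappaB pathway, was at 19.2 ± 3.37 CPM (SD, n = 4) in Control, 24.98 ± 4.68 (n = 4) in White, 30.5 ± 5.73 (n = 3) in Green and 31.8 ± 6.72 (n = 4) in G3D. It met the limits on both green regimes and was left out by White. MAP3K7, a kinase of the canonical pathway upstream of the IkappaB kinases, had the opposite order, with 24.6 ± 5.87 CPM in Control, 23.4 ± 6.49 in White, 18.5 ± 2.95 in Green and 17.2 ± 3.56 in G3D. None of the 3 passed an adjusted p of 0.05 in edgeR in any of the 6 contrasts.

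Of 10 COMMD genes, COMMD4 and COMMD2 were matched. COMMD2 was at 11.8 ± 2.07 CPM in Control, 12.2 ± 4.08 in White, 9.24 ± 3.15 in Green and 7.39 ± 3.22 in G3D, so its means under green light lay below Control where those of COMMD4 lay above. Its edgeR adjusted p against Control was 0.819 in Green and 0.292 in G3D. Of 3 BRINP genes, BRINP1 and BRINP2 were matched. BRINP2, a related neural protein, was at 99.2 ± 9.63 CPM in Control, 106 ± 18.5 in White, 111 ± 6.72 in Green and 135 ± 17.9 in G3D. Its differences from Control were 0.16 in Green and 0.44 in G3D, where BRINP1 had 0.54 and 0.61, and BRINP2 passed an adjusted p of 0.05 in none of the 6 contrasts.

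In the RefSeq annotation of a later chicken assembly, GRCg7b, BRINP1 lies between TLR4 and CDK5RAP2, COMMD4 between ZP3 and NEIL1, and NFKBIB between SARS2 and SIRT2. Of these neighbours only SIRT2, a deacetylase abundant in myelinating glia, could be matched to an identifier. SIRT2 was at 157 ± 13.9 CPM (SD, n = 4) in Control, 150 ± 9.40 in White (n = 4), 185 ± 20.1 in Green (n = 3) and 211 ± 28.0 in G3D (n = 4). Its difference from Control was 0.23 in Green and 0.41 in G3D, so unlike NFKBIB it stood short of the limit in both.

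Markers of other cell types could be followed only in part, since they too were matched only through symbols in the study's table. The paper cites that table for genes it found differentially expressed against Control in these same samples. The matched markers are thus a selected set, and tests of them here are not independent evidence. Of 8 markers of fibroblasts, meninges and mural cells, 1 was matched, the collagen chain COL1A2, and it was between 27.0 and 40.5 CPM in Control, 30.5 and 36.4 in White, 35.8 and 61.2 in Green and 50.8 and 90.0 in G3D. COL1A2 was called higher in G3D than in Control by edgeR (background 0.0286%), with a log2 fold change of 1.09 ± 0.19 and adjusted p = 0.0249. That call was lost without any 1 of the 4 Control libraries or without G3D replicate 7, with adjusted p between 0.0559 and 0.0666, and at 0.152 with the replicate number as a block. Of 6 markers of tanycytes and ependyma, VIM and CRYM were matched, and their summed level was between 271 and 297 CPM in Control, 303 and 390.2 in White, 318 and 401 in Green and 349.6 and 573 in G3D. The 3 matched neuron markers summed to between 2472 and 3103 CPM in Control, 2949 and 3593 in White, 2802 and 3425 in Green and 2773 and 3985 in G3D, a sum carried by STMN2, a microtubule regulator of growing neurites. Its mean log2(CPM + 1) was above Control by 0.27 in Green and 0.36 in G3D. The means of the other 2 were below Control: the difference was -0.18 in Green and -0.41 in G3D for SNAP25, and -0.48 and -0.86 for GAD2, an enzyme of GABA synthesis. None of these 6 markers was at 0 in any library. The means of COL1A2, VIM and CRYM were higher in G3D than in Green, where the 18 genes were level by choice, and the part of these cell types in the levels of the 18 genes was not tested.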

How the data were processed

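The table that the authors deposited holds counts by Ensembl gene identifier, not scaled for depth. Per the study's methods and processing notes, the authors trimmed reads with Cutadapt, mapped them with STAR to the 3′ ends of genes of GRCg6a, collapsed duplicates by UMI and counted with HTSeq. How strand was treated is not given in the sources used here. The authors' own fold changes and p-values in the supplementary table were not used, only its pairing of identifiers and symbols.

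Libraries were grouped by the lighting regime in their titles. CPM was the count divided by the library total times 1000000, and the rule used group means of log2(CPM + 1). The members and the gene lists were chosen with earlier results of these data known. Counts were fitted in R 4.3.3 with edgeR 4.0.16 (filterByExpr, 10475 genes, TMM, robust quasi-likelihood on 15 libraries, Benjamini-Hochberg adjustment, threshold 0.05), and with DESeq2 1.42.0 and limma 3.58.1 as alternatives. The fit was tested on simulated data. The common biological coefficient of variation was 0.258. Nothing says that replicates came from separate hatches, so p-values measure the spread between these samples.

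Genes were named if they had a symbol or were among the 5 highest in mean count or the 5 with the largest mean difference from Control. Values in every library for the 7 of these without a symbol were added after their values were seen. Alternatives were other scalings, pseudocounts, floors, group medians, other tools and leaving out each library. Of the reference only gene names and neighbours on GRCg7b were used, with no coordinates or sequences.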

Additional observations from a re-analysis of the deposited data

Results flagged for a closer look

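Among 54 groups of libraries tested, each the values of 1 gene in 1 group of 4, 3 held a library far from the others by Dixon's criterion, which chance meets in about 5% of groups. Control replicate 8 was the lowest for ENSGALG00000049360, at 3.14 CPM where the other Control libraries were between 32.5 and 35.3 CPM. The same library was the lowest for ENSGALG00000047953, at 4.23 CPM against 9.998 to 10.2 CPM. White replicate 6, the library with the fewest counts, was the highest for ENSGALG00000043926, at 28.1 CPM against 8.79 to 10.9 CPM.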

How the results depend on the processing

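The number of genes that met the rule was 18 as reported, 7 with a pseudocount of 5, 37 with no floor and 4 with a floor of 200 counts, and between 9 and 25 with 1 library left out. With group medians 16 genes met it, of which 5 were among the 18. TMM or DESeq2 scaling gave 19 genes each, of which 15 were among the 18. For the 10 genes described singly, 379 of 380 alternative values of Green or G3D minus Control moved by less than the Control SD, 0 changed sign, and BRINP1 in Green minus Control moved to 0.66 without Green replicate 7. These alternatives did not include group medians or the replicate block. The signs were nearly fixed by the choice of the genes. The Control SD was itself wide for ENSGALG00000049360, at 1.55 on the log2 scale. Its Green minus Control fell from 1.18 to 0.41 without Control replicate 8, and this still counted as less than that SD.

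In edgeR 0 genes of all tested were called in Green minus Control, 10 in G3D minus Control, 0 in White minus Control, 0 in G3D minus Green, 23 in Green minus White and 437 in G3D minus White. DESeq2 called 23, 223, 1, 2, 200 and 1001 in the same order. With no filter on low counts there were 3 in Green minus Control, 30 in G3D minus Control, 1 in White minus Control and 67 in Green minus White, and voom called 4 in G3D minus Control. With 1 library left out the counts were 0 to 1, 1 to 221, 0 to 1, 0 to 1, 2 to 40 and 38 to 1028.

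Of the 18 genes, edgeR called 0 in Green minus Control, G3D minus Control and Green minus White and 2 in G3D minus White. DESeq2 called 1, 3, 1 and 4, and with no filter 1 was called in G3D minus Control and 1 in G3D minus White. With 1 library left out there were 0 to 0, 0 to 2, 0 to 2 and 0 to 4. The median correlation within groups was 0.29 to 0.35, and the genes with all green libraries above Control and White were 2 to 6, with those above Control 9 to 12, under omissions chosen after seeing the data. The cause of these changes was not tested.

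Some replicate numbers recur between groups. The 8 same-numbered pairs had correlations of their deviations between -0.10 and 0.12. The labels do not say what the number stands for, and correlations over 8 pairs cannot settle whether such samples share more than it. With the number as a replicate block, edgeR called 3 genes in G3D minus Control, 4 in White minus Control, 3 in Green minus White and 115 in G3D minus White, and 0 of the 18 in G3D minus White. Green and Control share no replicate number, and numbers 2 and 9 occur only in Green. Under that block the contrasts of Green thus rest on Green replicate 7 alone. There the log2 fold change in Green minus Control was -0.037 ± 0.69 (standard error) for ENSGALG00000049360 and -0.53 ± 0.66 for ENSGALG00000047953. In that contrast 16 of the 18 kept their sign. In G3D minus Control all 18 kept it. The planned search of promoters for a CRE motif was not run, because no promoter sequences were used here. Depth limits the genes of lowest abundance most.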
